A study of Mus musculus with 12 samples.

Results

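SR splicing factors are RNA-binding proteins that select exons, and the CLK kinases phosphorylate them. The 10 genes described here are *Srsf1*, *Srsf2*, *Srsf3*, *Srsf5*, *Srsf6*, *Srsf7*, *Tra2a*, *Tra2b*, *Clk1* and *Clk4*. They were taken by symbol from an expression table of 24824 genes, and each symbol had 1 entry in it. All 10 were among the 10615 genes with a mean of at least 1 FPKM (fragments counted on a gene, divided by its length and by the size of the library), the genes that were tested. The cells were AML12, a line of immortalized mouse hepatocytes derived from a mouse transgenic for human transforming growth factor alpha. Group A stayed in growth medium for 24 h. Group B received 300 μM CuCl2 with 40 nM elesclomol, an ionophore that carries copper into cells (Cu/ES). Group C received Cu/ES and 1000 μM taurocholic acid (TCA), a conjugated bile acid, and group D received 1000 μM TCA alone, all for 24 h and all in cells whose genotype the labels give as WT. Each group had 3 libraries of polyadenylated RNA from this single cell line. The labels do not say whether the 3 came from separate cultures, so p-values measure the spread between libraries, which may be technical.

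SR proteins carry RNA recognition motifs and a tail rich in arginine and serine. Phosphorylation of that tail by CLK kinases in the nucleus and SRPK kinases in the cytoplasm controls where SR proteins sit and which RNA they bind. The family regulates its own abundance: its transcripts can include a poison exon or keep an intron, and such forms are degraded by nonsense-mediated decay or detained in the nucleus. Heat shock is known to change the phosphorylation of SR proteins and the splicing of *Clk1* and *Clk4*. In the GENCODE M21 annotation each of the 10 genes had at least 1 transcript annotated as a target of nonsense-mediated decay and at least 1 with a retained intron. Among 9853 protein-coding genes tested and matched by symbol, 24.8% had both. The deposited values are 1 number for each gene, so coding and noncoding transcript forms cannot be told apart in what follows.

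Promoter sequences from RefSeq, which cover 250 bases before and 50 after the start site in GRCm38.p6, were matched for 9 of the 10 genes. The sources name GRCm39 for the reads, so these positions belong to the sequence table and not to the expression values. The promoters of 4 of the 5 genes that rose past both thresholds with Cu/ES are shown because they hold letters of stress response elements, and that of the other, *Srsf7*, held none of those searched. Capitals mark paired heat shock units (GAA, 2 bases of any kind and TTC, or TTC, 2 bases and GAA), metal response element cores (TGCACNC or TGCGCNC, or GNGTGCA or GNGCGCA on the other strand) and parts of the cAMP response element (TGACGT, or ACGTCA on the other strand).
Srsf2, chr11:116853045-116853344, - strand: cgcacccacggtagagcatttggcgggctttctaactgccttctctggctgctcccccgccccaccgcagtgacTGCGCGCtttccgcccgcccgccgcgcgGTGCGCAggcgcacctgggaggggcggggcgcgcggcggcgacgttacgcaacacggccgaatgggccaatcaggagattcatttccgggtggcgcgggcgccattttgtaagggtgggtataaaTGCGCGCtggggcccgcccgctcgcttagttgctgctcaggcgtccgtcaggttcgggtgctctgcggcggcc
Srsf3, chr17:29032410-29032709, + strand: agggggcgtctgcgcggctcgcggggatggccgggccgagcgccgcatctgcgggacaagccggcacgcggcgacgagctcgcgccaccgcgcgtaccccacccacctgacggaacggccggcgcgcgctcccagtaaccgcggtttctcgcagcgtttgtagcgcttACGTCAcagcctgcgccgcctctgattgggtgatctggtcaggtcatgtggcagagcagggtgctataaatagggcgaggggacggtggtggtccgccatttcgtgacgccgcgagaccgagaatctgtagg
Tra2a, chr6:49264003-49264302, - strand: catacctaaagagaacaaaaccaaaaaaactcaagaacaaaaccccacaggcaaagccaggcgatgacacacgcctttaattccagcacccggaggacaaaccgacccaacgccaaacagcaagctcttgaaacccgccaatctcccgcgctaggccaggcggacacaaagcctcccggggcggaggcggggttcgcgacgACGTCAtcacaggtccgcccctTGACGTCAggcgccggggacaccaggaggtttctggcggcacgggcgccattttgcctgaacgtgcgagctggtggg
Tra2b, chr16:22265956-22266255, - strand: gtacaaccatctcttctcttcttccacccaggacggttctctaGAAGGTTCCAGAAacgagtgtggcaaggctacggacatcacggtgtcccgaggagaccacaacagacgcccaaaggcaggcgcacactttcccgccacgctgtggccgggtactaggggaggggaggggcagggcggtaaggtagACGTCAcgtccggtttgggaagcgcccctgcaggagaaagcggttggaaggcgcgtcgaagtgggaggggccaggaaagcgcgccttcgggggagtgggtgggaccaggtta
*Tra2b* was the only gene of the 9 with a heat shock element of 3 such units in turn, GAA and TTC alternating 2 bases apart, which overlaps its paired units. Of all 32851 promoter windows, 0.603% held that element and 15.1% held paired units. The stress genes *Hspa1a*, *Hspa1b* and *Dnajb1*, which rose with Cu/ES, held no element of 3 units in their windows. *Hspa1a* and *Hspa1b* held 1 match of paired units each. *Srsf2* held 3 metal response element cores, and *Srsf6* and *Clk4* held 1 each, where 25.7% of all windows held at least 1. The metallothionein genes *Mt1* and *Mt2* held 3 and 4. The part of the cAMP response element was found in *Srsf3*, *Srsf6*, *Tra2a*, *Tra2b* and *Clk4*, 5 of the 9, against 7.51% of all windows. Its letters were chosen after these sequences had been read, and a match is a description of letters, not a binding site.

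Recovered library totals ran from 29115014 to 39782146 reads, lower in groups B and C than in groups A and D. The 10 genes with most reads held 4.71% to 5.19% of a library in groups A and D and 11.5% to 13.0% in groups B and C. Stress genes were mostly high in group B. *Hspa1b*, the inducible heat shock protein 70, went from a mean of 0.815 to 7842 FPKM and *Hmox1*, heme oxygenase 1, from 28.6 to 2693. The metallothionein genes differed, as *Mt1* went from 169.2 to 354.4 FPKM and *Mt2* from 554.3 to 281.0. Of 7 such genes checked, 6 rose and 1 (*Mt2*) fell with Cu/ES, and all 7 rose under median-ratio scaling. Of 10 hepatocyte markers, 7 were in the table and only 2, *Krt8* and *Krt18*, were tested. *Krt8* and *Krt18* were abundant (means of 343.5 and 284.9 FPKM in group A), but *Alb*, *Apob*, *Hnf4a* and *Fgb* were listed at 0 in every untreated library and at means of at most 0.0463 FPKM in any group. The 7 summed to 596.2 to 649.2 FPKM in group A, 235.6 to 286.9 in group B, 172.1 to 207.7 in group C and 697.1 to 716.9 in group D. Of 13 markers of other liver cell types, 12 were in the table and 6 were tested. The cholangiocyte keratin *Krt19* had a mean of 267.7 FPKM in group A, the macrophage marker *Cd68* 92.2, and *Ptprc* and *Adgre1* were at or near 0. The 12 summed to 333.0 to 437.2 FPKM in group A, 102.1 to 125.4 in group B, 128.4 to 133.4 in group C and 200.04 to 286.5 in group D. Of the 6 tested, *Krt19* (77.3 FPKM in group B), *Cd68* (27.2), *Des* and *Col1a1* fell with Cu/ES. The endothelial marker *Pecam1* rose from a mean of 0.214 to 6.85 FPKM with Cu/ES and to 16.1 with TCA added (log2 changes of 2.65 and 1.15), and *Cdh5* did not pass with Cu/ES and rose with TCA added (0.41). With TCA alone *Cd68* fell to 33.0 FPKM. *Krt18* fell with Cu/ES to 81.9 FPKM and *Krt8* to 182.9, the latter turning to a log2 change of 0.38 under median-ratio scaling, while *Apoa1*, below the filter, had means of 0.00863 and 1.86. The part of these markers in the results below was not tested. FPKM is relative to the library, so fewer transcripts in each cell and fewer cells cannot be told apart. Between groups B and A the median gene fell by 1.10 on the log2(FPKM + 1) scale, and the members are read against that shift. Because the shift depends on how libraries are made comparable, changes were also computed after TPM scaling (each library brought to the same FPKM sum), median-ratio scaling (the median ratio over genes detected in every library set equal) and quantile normalization (all libraries given one distribution).

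In untreated cells *Srsf5* was the most abundant of the 10 per length, at 150.7 ± 18.6 FPKM (mean ± SD, n = 3), and *Clk4* the least, at 23.3 ± 1.98. Between them, *Srsf3*, *Srsf1*, *Clk1*, *Srsf6*, *Srsf2*, *Tra2a* and *Srsf7* followed in that order from 82.0 to 51.4 FPKM, and the ranges of each pair of neighbours overlapped. *Tra2b*, at 45.4 ± 2.16, lay below *Srsf7* and above *Clk4* with no overlap. With Cu/ES the order was *Srsf2*, *Srsf3*, *Srsf5*, *Srsf7*, *Tra2a*, *Tra2b*, *Clk1*, *Srsf1*, *Srsf6* and *Clk4*, and only *Srsf5* and *Srsf7*, and *Srsf1* and *Srsf6*, overlapped as neighbours. *Srsf2* thus moved from the sixth place to the first.

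**Figure D1:**
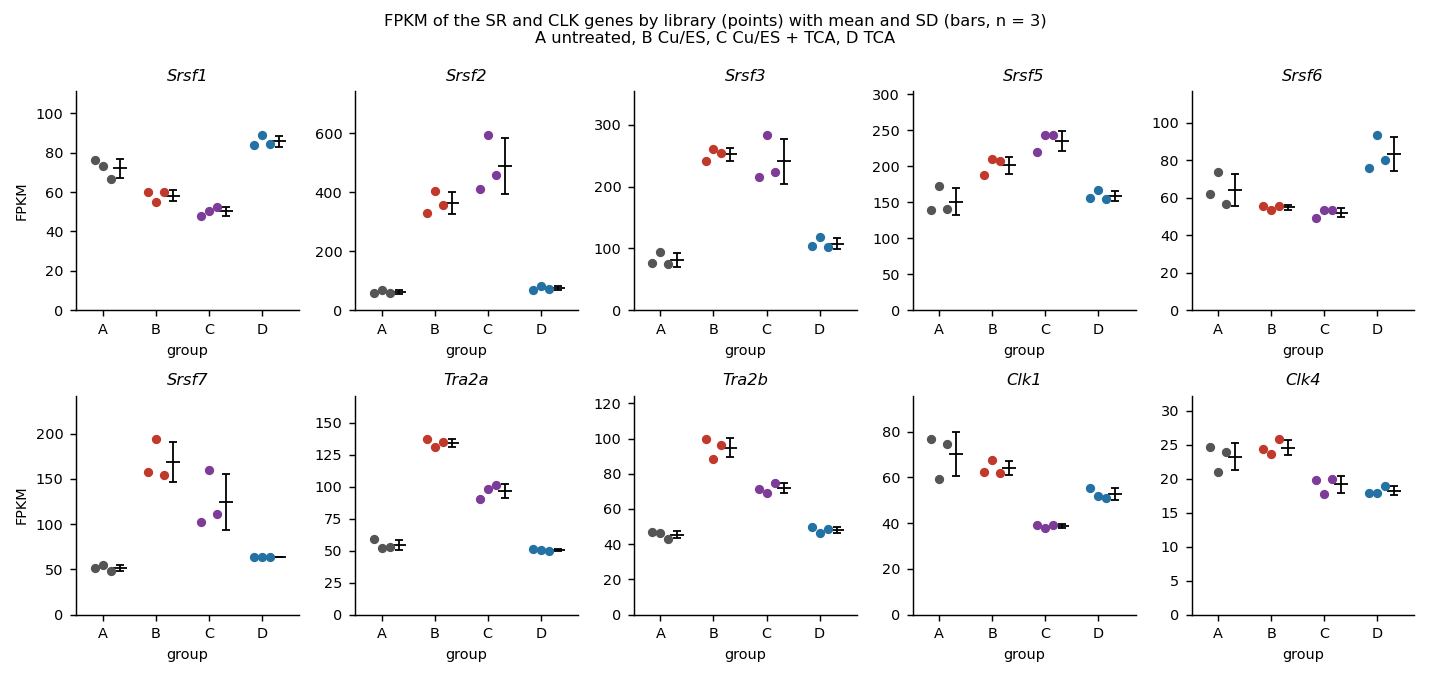
FPKM (vertical axis, linear from 0, 1 scale for each gene) of the 10 genes in every library (points) of groups A to D (horizontal axis), with the mean and SD of 3 libraries (bars). *Srsf2*, *Srsf3*, *Srsf7*, *Tra2a* and *Tra2b* are higher in all libraries of groups B and C than in any of groups A and D, and *Clk1* is lowest in group C.

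Group B against group A asks what Cu/ES did. *Srsf2*, *Srsf3*, *Srsf7*, *Tra2a* and *Tra2b* rose past both thresholds. These were 0.05 for the p of limma after Benjamini-Hochberg (BH) adjustment across all genes tested, and a log2 change above 1 in size, where the log2 change is the difference of mean log2(FPKM + 1), given with its standard error. Of all genes tested, 10.1% rose that far and 53.0% fell that far, while none of the 10 fell that far. By the adjusted p alone 6 of the 10 rose, against 20.1% of all genes, and 2 fell, against 72.0%. The median log2 change of the 10 was 0.73. Because the 10 were chosen with earlier results of these data known, these shares describe the set and do not test it.

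*Srsf2* encodes SC35, an SR protein long used as a marker of nuclear speckles. Its FPKM was 59.8, 68.7 and 57.8 without treatment, against 329.9, 403.8 and 357 with Cu/ES. The lowest library with Cu/ES was thus several times the highest without it, a log2 change of 2.53 ± 0.12 (limma, BH-adjusted p = 5.91e-11) and a fold of 5.78. RefSeq places the gene *Mfsd11*, which encodes a membrane transporter-like protein, across part of *Srsf2*. *Mfsd11* had 7.13, 7.66 and 7.50 FPKM without treatment, against 27.7, 26.4 and 26.3 with Cu/ES, a log2 change of 1.72 (limma, BH-adjusted p = 6.61e-12). The sources used here do not state whether reads were counted by strand, so reads of these 2 genes may be mixed. Within a library *Srsf2* stood above *Mfsd11* by a mean log2 ratio of 3.06 in group A and 3.76 in group B, a difference of 0.70 (two-sided exact permutation p = 0.1, which 3 against 3 cannot go below), but of -0.39 after quantile normalization.

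*Srsf3*, the smallest SR protein, which also links splicing to RNA export, had 76.6, 95.0 and 74.4 FPKM without treatment, against 241, 260.5 and 255 with Cu/ES. *Srsf7*, its closest relative, which carries a zinc knuckle, had 51.5, 54.3 and 48.2 FPKM without treatment, against 157, 193.6 and 154 with Cu/ES. Neither gene had overlapping groups, and the log2 changes were close, at 1.62 for *Srsf3* and 1.69 for *Srsf7* (standard errors 0.11 and 0.13; limma, BH-adjusted p = 2.78e-09 and 1.67e-08). The log2 ratio of *Srsf3* to *Srsf7* within a library was 0.67 untreated and 0.59 with Cu/ES, with overlapping libraries (two-sided exact permutation p = 0.5, pooled SD 0.14). After quantile normalization the difference was -0.35 with no overlap.

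*Tra2a* and *Tra2b* encode the transformer-2 proteins, which bind GA-rich exonic enhancers. *Tra2a* had 59.0, 51.9 and 52.8 FPKM without treatment, against 137, 131 and 135 with Cu/ES, a log2 change of 1.29 ± 0.06 (limma, BH-adjusted p = 9.49e-11). *Tra2b* had 46.8, 46.6 and 42.9 FPKM without treatment, against 99.5, 88.6 and 96.5 with Cu/ES, a log2 change of 1.05 ± 0.06 (limma, BH-adjusted p = 8.79e-10). Both were higher in each Cu/ES library than in any untreated one. The log2 ratio of *Tra2a* to *Tra2b* within a library had a mean of 0.26 untreated and 0.50 with Cu/ES, with no overlap (two-sided exact permutation p = 0.1). After quantile normalization the difference was 0.11 and the libraries overlapped.

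*Srsf5*, a factor that is also induced by insulin and in regenerating liver, had 139, 172 and 141 FPKM without treatment, against 187, 209.5 and 207 with Cu/ES. Its groups did not overlap and its log2 fold change was 0.42 (standard error 0.08, limma, BH-adjusted p = 2.73e-04). Scaled to TPM or by quantiles that change was 0.05 and 0.02 and did not pass, and under median-ratio scaling it was 1.70 and passed both thresholds.

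*Srsf1* encodes SF2/ASF, the founding member of the family. It had 76.4, 73.1 and 66.8 FPKM without treatment, against 59.8, 54.8 and 60.1 with Cu/ES, a log2 change of -0.30 ± 0.07 (limma, BH-adjusted p = 6.55e-04), but 0.96 under median-ratio scaling. *Srsf6* encodes SRp55. It had 62.3, 73.6 and 56.7 FPKM without treatment, against 55.9, 53.4 and 55.7 with Cu/ES, a log2 change of -0.21 ± 0.09 (limma, BH-adjusted p = 0.0452), but 1.05 under median-ratio scaling. The call for *Srsf6* was lost when any of the libraries A1, A2, B1, B2, B3, C3 or D3 was left out, where A1 is replicate 1 of group A (log2 changes of -0.23 to -0.11, limma, BH-adjusted p = 0.0543 to 0.242). It was also lost without a filter, without a trend of variance and after quantile normalization (-0.09). The changes of *Srsf1* and *Srsf6* lay 0.80 and 0.89 above the shift of the median gene on the log2 scale.

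The 2 kinases did not pass as deposited. *Clk1*, a dual-specificity kinase of SR proteins, had 76.6, 59.2 and 74.6 FPKM without treatment, against 62.5, 67.8 and 61.9 with Cu/ES, and the groups overlapped (log2 change -0.12 ± 0.09, limma, BH-adjusted p = 0.196). *Clk4*, its closest relative, had 24.7, 21.0 and 24.0 FPKM without treatment, against 24.4, 23.6 and 25.8 with Cu/ES, again overlapping (log2 change 0.08 ± 0.08, limma, BH-adjusted p = 0.329). How the libraries are scaled decides their direction, because *Clk1* was -0.49 under TPM and 1.15 under median-ratio scaling and *Clk4* was -0.28 and 1.31. Each of these values passed the adjusted p. After quantile normalization *Clk4* was 0.77 and passed, and *Clk1* was -0.05 and did not. Without library A2 the log2 change of *Clk1* was -0.24 and passed.

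The scaling bears on the whole comparison. TPM scaling moved the median of all genes tested to -1.56, and 3 of the 10 then rose past both thresholds, *Srsf2*, *Srsf3* and *Srsf7*. *Tra2a* and *Tra2b* stayed higher there, at 0.92 and 0.69, and passed the adjusted p. Median-ratio scaling moved the median of all genes to -0.03, and 9 of the 10 rose past both thresholds. Of the 10615 genes, 1070 rose and 5622 fell past both thresholds as deposited, 847 and 6724 under TPM, 2753 and 2710 under median-ratio scaling and 2198 and 2353 under quantile normalization. With limma-voom on whole reads recovered from the FPKM, 1204 rose and 6093 fell.

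**Figure D2:**
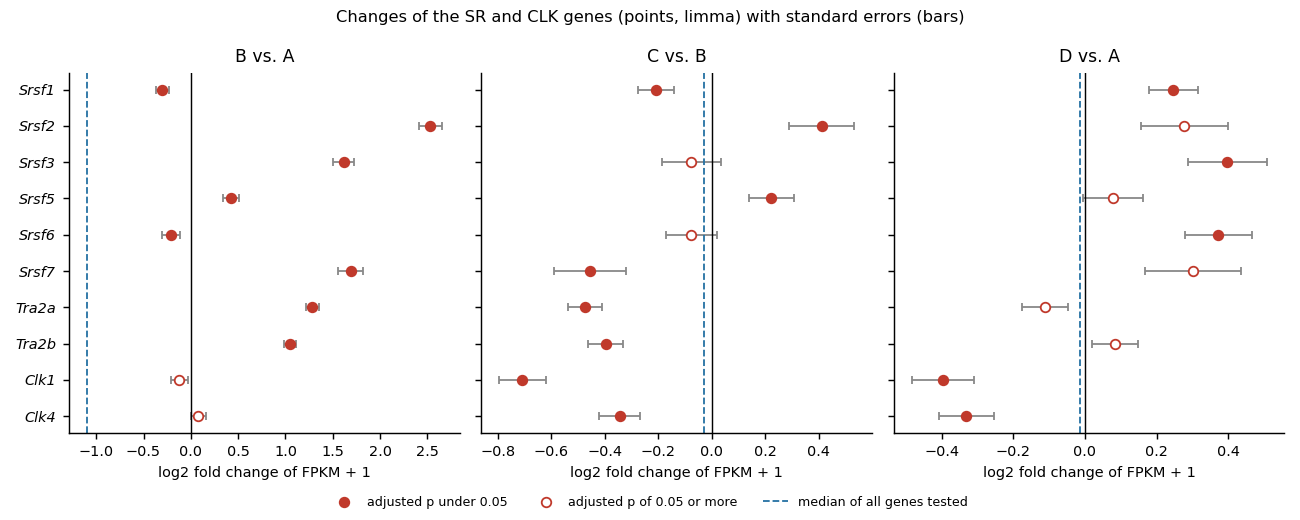
Log2 fold change of FPKM + 1 (horizontal axis, scales differ between panels) of the 10 genes (vertical axis) in 3 panels (B vs. A; C vs. B; D vs. A), with standard errors (bars) and the median of all genes tested (dashed line). For B vs. A all 10 genes lie to the right of the dashed line, which stands at -1.10, and *Srsf2* lies farthest right.

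Shares within the SR transcripts of a library are the same whatever single factor the library is scaled by. The FPKM of the 12 SR genes measured, the 8 above with *Srsf4*, *Srsf9*, *Srsf10* and *Srsf11*, summed to 729 ± 41.1 without treatment and to 1426 ± 63.7 with Cu/ES (SD, n = 3). *Srsf2* made up 8.31% to 8.87% of the sum in group A and 24.2% to 27.1% in group B. Over the same libraries *Srsf5* went from 19.3% to 22.2% down to 13.7% to 14.6%, although its FPKM was higher in group B. *Srsf1* went from 9.89% ± 0.637 to 4.10% ± 0.373, and *Srsf9* from 8.96% ± 1.44 to 1.67% ± 0.0333. The shares of *Tra2b* overlapped, at 6.23% ± 0.246 and 6.68% ± 0.684. Without *Srsf2* the sum was 667 ± 35.3 and 1062 ± 26.5.

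**Figure D3:**
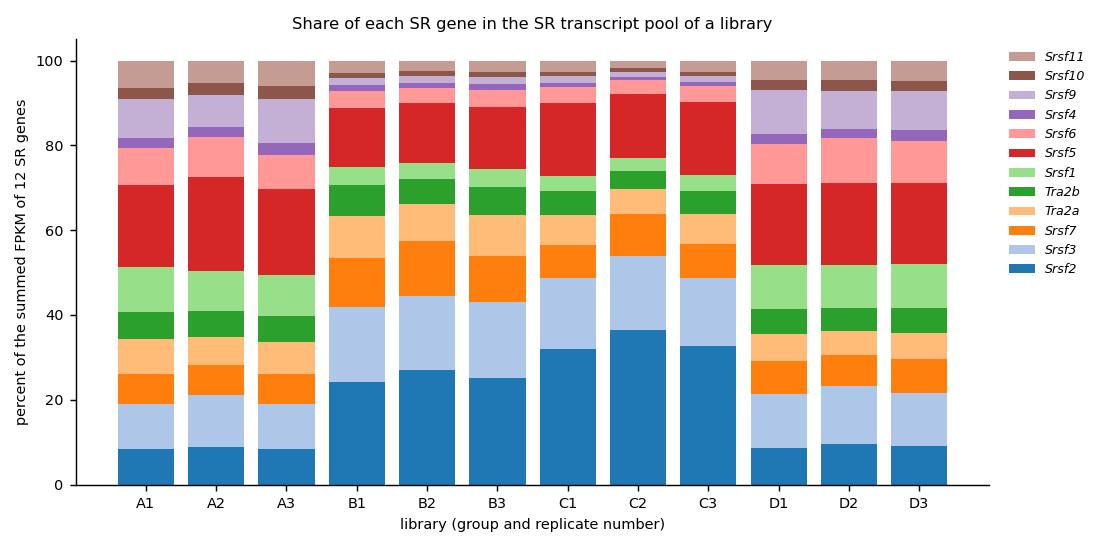
Percent of the summed FPKM of 12 SR genes (vertical axis) that each gene (colours) held in each library (horizontal axis, group and replicate number). *Srsf2* holds 8.31% to 9.51% in groups A and D, 24.2% to 27.1% with Cu/ES and 31.9% to 36.5% when TCA was added.

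Group C against group B asks what TCA added in cells with Cu/ES. The kinases and the transformer-2 genes fell, *Srsf2* rose further, and none of the 10 passed both thresholds, against 2.29% of all genes tested. By the adjusted p alone of limma with Benjamini-Hochberg adjustment, 6 fell, against 23.6% of all genes, and 2 rose, against 20.4%. The median log2 change of the 10 was -0.28 and that of all genes -0.03. The 2 comparisons share group B.

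*Clk1* fell most of the 10, to 39.3, 37.9 and 39.3 FPKM in group C. These libraries lay close together and below all those of groups A, B and D, and the log2 fold change was -0.71 (standard error 0.09, limma, BH-adjusted p = 2.92e-05). *Clk4* fell to 19.9, 17.7 and 19.99 FPKM, below every library of group B, with a log2 change of -0.34 ± 0.08 (limma, BH-adjusted p = 2.49e-03). The log2 ratio of *Clk1* to *Clk4* within a library had a mean of 1.38 with Cu/ES alone and 1.02 with TCA added, with no overlap (two-sided exact permutation p = 0.1).

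*Tra2a* fell to 90.2, 97.98 and 101 FPKM, with a log2 change of -0.47 ± 0.06 (limma, BH-adjusted p = 6.90e-05). *Tra2b* fell to 71.1, 69.3 and 74.9 FPKM, with a log2 change of -0.40 ± 0.06 (limma, BH-adjusted p = 2.49e-04). Both lay between the levels of groups A and B in every library. Their log2 ratio was 0.43 in group C and 0.50 in group B, with overlapping libraries (two-sided exact permutation p = 0.3). The falls of these 2 genes and of the 2 kinases passed under all 22 alternatives.

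*Srsf2* rose to 410.4, 593.7 and 459 FPKM, a log2 change of 0.41 ± 0.12 (limma, BH-adjusted p = 0.0147), and the groups did not overlap. Without library B1 it was 0.34 and did not pass, and it also did not pass without a filter. *Mfsd11* rose to 50.2, 52.6 and 49.98 FPKM, a log2 change of 0.90 (limma, BH-adjusted p = 9.35e-07), and the mean log2 ratio of *Srsf2* to *Mfsd11* was 3.24, against 3.76 with Cu/ES alone (two-sided exact permutation p = 0.1). *Srsf5* had 219, 242.8 and 242.9 FPKM, a log2 change of 0.22 ± 0.08 (limma, BH-adjusted p = 0.0451). It lost its call when any of the libraries B1, B2, B3, C2, C3, D1 or D3 was left out (log2 changes of 0.17 to 0.25). The call was also lost without a filter and without a trend of variance. *Srsf2* held 31.9% to 36.5% of the summed SR FPKM in group C, above the 27.1% that was its highest share in group B.

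*Srsf7* had 102, 160.3 and 111 FPKM in group C, where library C2 lay within the range of group B and the other 2 below it. Its log2 fold change was -0.45 (standard error 0.13, limma, BH-adjusted p = 0.0143), and it did not pass without library B2, C1 or C3 (-0.39 to -0.33). The call was also lost without a filter and with only the groups compared. *Srsf3*, at 215, 283 and 224 FPKM, overlapped with group B and did not pass (log2 change -0.08, limma, BH-adjusted p = 0.612). The log2 ratio of *Srsf3* to *Srsf7* had a mean of 0.59 with Cu/ES alone and 0.97 with TCA added, with no overlap (two-sided exact permutation p = 0.1). *Srsf1* had 47.9, 50.4 and 52.5 FPKM, below every library of group B (log2 change -0.21 ± 0.07, limma, BH-adjusted p = 0.0220). It lost its call without library B1, B3 or C1 (-0.19 to -0.18), and under TPM scaling or quantile normalization (-0.14 in each). *Srsf6*, at 49.2, 53.7 and 53.6 FPKM, overlapped with group B (log2 change -0.08, limma, BH-adjusted p = 0.553).

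Group D against group A asks what TCA did without copper. *Clk1* and *Clk4* fell and *Srsf1*, *Srsf3* and *Srsf6* rose by the adjusted p of limma with Benjamini-Hochberg adjustment, which 11.5% of all genes passed lower and 10.5% passed higher. None of the 10 passed both thresholds, against 0.217% of all genes. *Clk1* had 55.5, 51.9 and 50.8 FPKM in group D, below every untreated library, a log2 change of -0.40 ± 0.09 (limma, BH-adjusted p = 5.96e-03). *Clk4* had 17.9, 17.9 and 19.0 FPKM, also below every untreated library, a log2 change of -0.33 ± 0.08 (limma, BH-adjusted p = 8.06e-03). Both kinases passed under all 22 alternatives, and their log2 ratio, 1.59 in group A and 1.53 in group D, overlapped (two-sided exact permutation p = 0.7).

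The SR genes that rose with TCA alone rose little. *Srsf3* had 104, 118 and 102 FPKM in group D, above every untreated library (log2 change 0.40 ± 0.11, limma, BH-adjusted p = 0.0207). *Srsf6* had 76.2, 93.4 and 80.0 FPKM, again above every untreated library (log2 change 0.37 ± 0.09, limma, BH-adjusted p = 0.0131). *Srsf1* had 84.0, 88.8 and 84.1 FPKM, again with no overlap (log2 change 0.25 ± 0.07, limma, BH-adjusted p = 0.0190). *Srsf3* and *Srsf6* lost their calls without library A1, A3 or D2 (log2 changes of 0.33 to 0.35 and of 0.29 to 0.36). *Srsf1* lost its call without A3 or D2 (0.19 and 0.22). The call was also lost for *Srsf3* without a filter and for *Srsf6* with only the groups compared.

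The other SR genes did not pass with TCA alone. *Srsf2*, at 70.2, 82.6 and 73.4 FPKM, and *Srsf7*, at 63.1, 63.6 and 63.5, lay above every untreated library (log2 changes 0.28 and 0.30, limma, BH-adjusted p = 0.121 and 0.125), and both passed when library C2, which enters only the shared spread, was left out. *Srsf7* also passed with only the groups compared (limma, BH-adjusted p = 0.0101). *Srsf5*, at 155, 166 and 154 FPKM, overlapped with group A (log2 change 0.08). *Tra2a* had 51.0, 50.5 and 49.6 FPKM and *Tra2b* 49.5, 46.5 and 48.4 (log2 changes -0.11 and 0.08). Between them the mean log2 ratio was 0.26 in group A and 0.06 in group D with no overlap (two-sided exact permutation p = 0.1). The ratio of *Srsf5* to *Srsf6* was likewise lower with TCA alone, at a mean of 0.93 against 1.23 on the log2 scale, and higher with Cu/ES, at 1.87, with no overlap in either (two-sided exact permutation p = 0.1 for each). After quantile normalization the difference with Cu/ES was 0.11 with overlap, and that with TCA alone was -0.37 without.

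**Figure D4:**
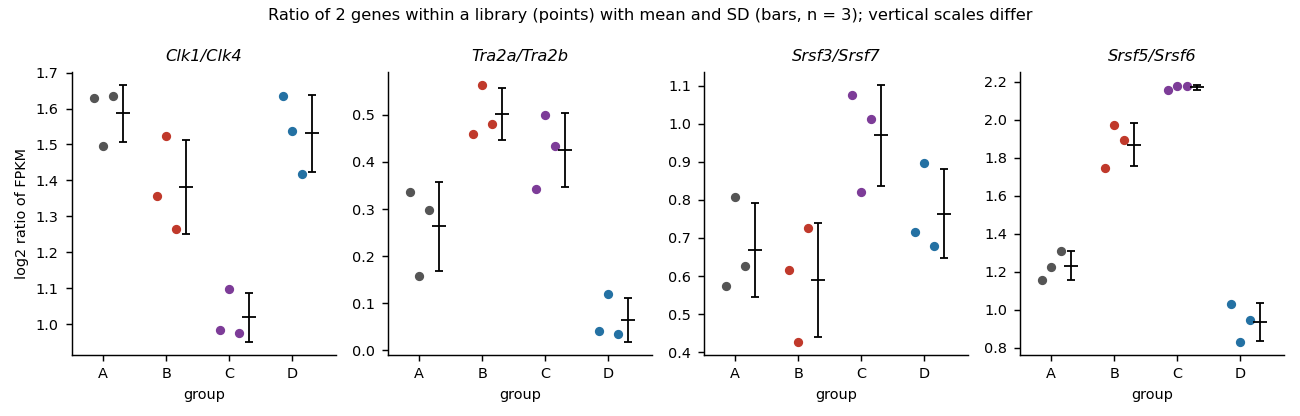
Log2 ratio of the FPKM of 2 related genes within a library (vertical axis, scales differ) in groups A to D (horizontal axis), with the libraries as points and the mean and SD of 3 as bars. *Clk1* over *Clk4* is lowest in group C, at a mean of 1.02, and *Srsf5* over *Srsf6* is highest there, at 2.17.

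Group C against group D shows Cu/ES in the presence of TCA, and it shares its libraries with the comparisons above. *Srsf2* rose by a log2 change of 2.66 and *Srsf3* by 1.14, past both thresholds, against 11.2% of all genes in that direction. *Srsf3* was 0.86 under TPM and 0.96 after quantile normalization, short of the second threshold. In those settings *Srsf1* fell past both under TPM (-1.05) and *Tra2a* rose past both after quantile normalization (1.11). *Srsf7* (0.93), *Tra2a* (0.92), *Tra2b* (0.57) and *Srsf5* (0.56) rose by the adjusted p of limma alone, which 20.9% of all genes passed higher and 71.5% lower. *Clk1* (-0.43), *Srsf1* (-0.76) and *Srsf6* (-0.66) fell, but under median-ratio scaling they were 0.80, 0.48 and 0.58. After quantile normalization *Clk1* was -0.08 and did not pass. *Clk4* did not pass as deposited, at 0.07. It passed as lower under TPM (-0.21), and as higher under median-ratio scaling (1.26, past both thresholds) and after quantile normalization (0.90).

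The interaction term of the same fit compares TCA added to Cu/ES with TCA alone. It passed for 6 of the 10, *Srsf1*, *Srsf3*, *Srsf6*, *Srsf7*, *Tra2a* and *Tra2b*, all lower with Cu/ES, against 19.8% of all genes tested. Of 51 genes of the core spliceosome, 29 passed in that direction and 3 in the other. *Srsf7* had the largest difference among them, -0.75 on the log2 scale (limma, BH-adjusted p = 7.35e-03).

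The rest of the SR family was measured in the same fit. Of *Srsf4*, *Srsf9*, *Srsf10* and *Srsf11*, all 4 tested, none rose with Cu/ES and 2 fell by the adjusted p, whereas under median-ratio scaling 3 rose and none fell. *Srsf9*, which encodes SRp30c, fell from 65.0 ± 6.97 to 23.8 ± 1.05 FPKM (SD, n = 3), or -1.41 in log2 (limma, BH-adjusted p = 4.90e-10), but was -0.15 and did not pass under median-ratio scaling. *Srsf10*, whose protein represses splicing when heat shock removes its phosphates, fell from 21.0 ± 0.827 to 16.5 ± 0.989 FPKM, or -0.34 in log2 (limma, BH-adjusted p = 6.70e-04), but was 0.88 under median-ratio scaling. *Srsf4* (0.13) and *Srsf11* (-0.17) did not pass. When TCA was added, *Srsf4* fell by 0.60 and *Srsf9* by 0.31 on the log2 scale, and with TCA alone *Srsf9* rose by 0.27.

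Of the other kinases of SR proteins, their phosphatase and import genes, 13 of 14 were tested. With Cu/ES 1 rose and 8 fell by the adjusted p, and under median-ratio scaling 7 rose and 3 fell. *Dyrk1a*, a kinase of SR proteins and other nuclear proteins, rose from 4.74 ± 0.403 to 13.7 ± 0.259 FPKM (log2 fold change 1.36), whereas *Dyrk3* fell from 7.21 ± 0.490 to 1.47 ± 0.557 (-1.76). *Clk2* fell from 5.35 ± 0.371 to 1.85 ± 0.251 FPKM (-1.16), and *Srpk2* from 6.99 ± 0.246 to 1.61 ± 0.320 (-1.62). *Srpk1*, the more abundant SRPK gene, had 21.8 ± 0.707 and 22.7 ± 0.834 FPKM and did not pass (0.06). *Ppp1cc*, a catalytic subunit of protein phosphatase 1, fell by 1.96 on the log2 scale, *Ppp1ca* by 0.94, and *Tnpo3*, the importin of SR proteins, by 1.11. *Tnpo1* (-1.03) and *Prpf4b* (-0.52) also fell. Under median-ratio scaling *Dyrk3* (-0.80), *Ppp1cc* (-0.72) and *Srpk2* (-0.64) still fell, *Clk2* (-0.19), *Tnpo1* (0.21) and *Tnpo3* (0.11) did not pass, and *Ppp1ca* (0.34) and *Prpf4b* (0.68) rose. As deposited, *Clk3* (-0.22), *Ppp1cb* (-0.09) and *Dyrk1b* (0.27) did not pass. *Srpk3* was below the filter.

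With TCA added to Cu/ES the other CLK genes went the opposite way to *Clk1* and *Clk4*. *Clk2* rose from 1.85 ± 0.251 to 3.16 ± 0.652 FPKM and *Clk3* from 18.5 ± 0.610 to 23.6 ± 0.443, log2 changes of 0.54 and 0.33 (limma, BH-adjusted p = 3.12e-03 and 0.0153). *Dyrk1b* (0.61), *Srpk2* (0.29) and *Prpf4b* (0.27) rose as well, and *Ppp1ca* (-0.55) and *Ppp1cb* (-0.32) fell. With TCA alone *Srpk1* rose by 0.39, and *Srpk2* (-0.39) and *Ppp1cb* (-0.43) fell. None of the list passed both thresholds in either comparison.

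As deposited, the wider splicing lists split in both directions with Cu/ES, where all genes tested had a median of -1.10. Of 22 SR-related speckle genes, 10 rose and 11 fell by the adjusted p, with a median of -0.15 (16 and 4 under median-ratio scaling, median 1.11). *Thrap3* (2.07) and *Zranb2* (1.47) rose most, and *Scaf1* (-2.37) and *Rsrc1* (-1.86) fell most. The 24 hnRNP genes encode RNA-binding proteins that often oppose SR proteins. Of these, 14 rose and 9 fell, with a median of 0.31. The counts were 10 and 11 under TPM (median -0.05) and 21 and 2 under median-ratio scaling (median 1.55). As deposited *Hnrnph2* (2.14) and *Hnrnpc* (1.84) rose most, and *Hnrnpul1* (-1.63) and *Pcbp2* (-1.36) fell most, the last without passing under median-ratio scaling (-0.08). Of 51 genes of the core spliceosome, 27 rose and 19 fell, with a median of 0.21. The counts were 20 and 24 under TPM (median -0.12) and 42 and 6 under median-ratio scaling (median 1.47). As deposited *Slu7* (2.17), a factor of the second splicing step, and *Prpf38b* (2.09) rose most, and the helicase *Dhx16* (-2.66) and *Cdc5l* (-2.01) fell most.

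Of 14 genes of nonsense-mediated decay and the exon junction complex, 6 rose and 6 fell with Cu/ES, with a median of 0.20 (-0.15 under TPM, and 10 rose and 4 fell under median-ratio scaling). *Magoh* and *Eif4a3*, of the exon junction complex, went from 48.9 ± 0.700 to 276.6 ± 13.2 FPKM (log2 fold change 2.48) and from 85.6 ± 2.35 to 294 ± 5.95 (1.77). *Upf3a* fell from 9.49 ± 0.347 to 1.20 ± 0.265 FPKM (-2.26) and *Smg8* from 12.3 ± 1.03 to 2.07 ± 0.304 (-2.11). With TCA added to Cu/ES, 28 of the 51 spliceosome genes fell and 5 rose by the adjusted p, with a median of -0.26. In the same comparison 5 speckle genes rose and 5 fell, 8 hnRNP genes rose and 5 fell, and 4 genes of the decay list rose and 3 fell. No gene of these lists passed both thresholds there or with TCA alone.

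**Figure D5:**
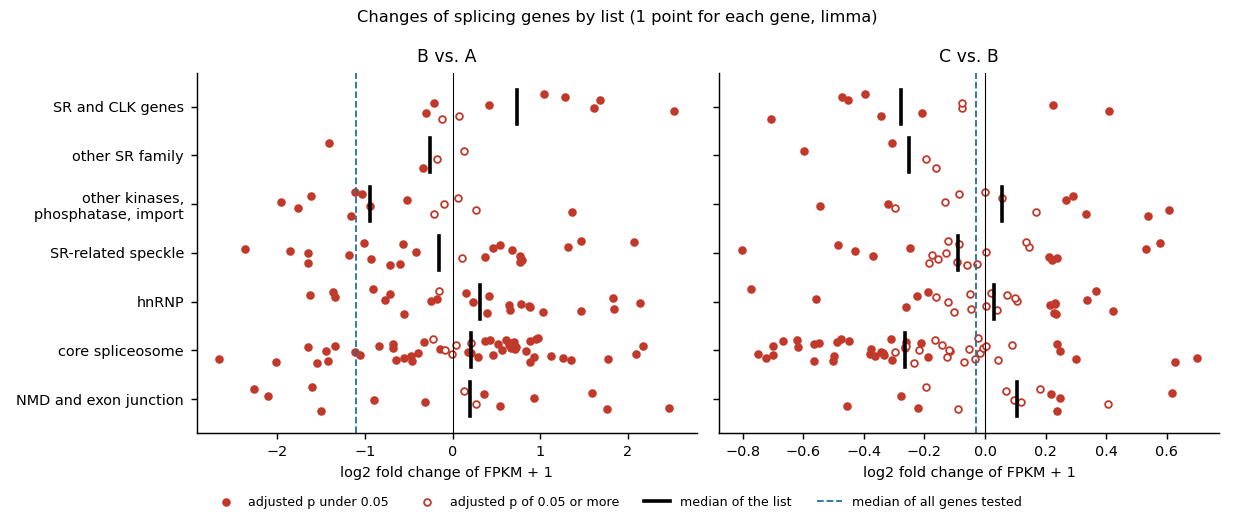
Log2 fold change of FPKM + 1 (horizontal axis, scales differ) of each gene (points) of 7 lists of splicing genes (vertical axis) for groups B vs. A and C vs. B, with the median of each list (thick bars) and of all genes tested (dashed line). For B vs. A the medians run from -0.94 in the other kinases to 0.73 in the SR and CLK genes, and that of all genes is -1.10. The lists were chosen with earlier results of these data known.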

How the data were processed

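The authors deposited FPKM values for 12 libraries, 3 in each of 4 groups, with replicates kept apart. The submitters' processing notes name fastp, HISAT2, HTSeq and GRCm39, without versions. The annotation and strand setting are not given in the sources used here. Groups and replicate numbers came from the sample titles.

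Genes averaging at least 1 FPKM were kept, and log2(FPKM + 1) of all 12 libraries was fitted in limma 3.58.1 (R 4.3.3) with a term for each group and a trend of variance with level (8 residual degrees of freedom). Two-sided p-values were BH-adjusted (Benjamini-Hochberg) for 10615 genes. A gene rose or fell at an adjusted p under 0.05, and both thresholds added an absolute log2 fold change above 1. Ratios within a library were compared by exact permutation tests (scipy 1.17.1), whose smallest p for 3 against 3 is 0.1. The test for counts that the study names was not used here, since the deposited unit is FPKM.

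Whole reads came out of the FPKM spacing for 99.4% of genes above 0 in 2 libraries (within 0.02 reads plus rounding), with 2092 to 73648 reads for a member in a library. They give counting precision only. Members and lists were chosen with earlier results of these data known. Beside the members, the text names every gene of the other SR genes and kinases, and the 2 largest rises and falls with Cu/ES past both thresholds of each other splicing list. *Mfsd11* was named because it overlaps *Srsf2*. Of a gene that overlaps *Clk4*, BC049762, no library exceeded 1.06 FPKM. Alternatives were another pseudocount or filter, TPM, median-ratio and quantile scaling, a replicate block, no trend, only the groups compared, limma-voom on recovered reads, and each library left out. Libraries of groups A and B with the same replicate number correlated in their deviations from group means (r of 0.142 to 0.174). There 6 of 6 libraries correlated best with their own number, so the numbers may mark pairs. The values given for that comparison still come from the fit without pairs, and the replicate block was only an alternative. Python 3.11.15, pandas 2.3.3, numpy 2.4.6 and matplotlib 3.10.9 made tables and plots.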

Additional observations from a re-analysis of the deposited data

Results flagged for a closer look

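For 6 of the 10 genes the change with TCA was lower in the presence of Cu/ES than in its absence, by the interaction term of limma after BH adjustment. Of all genes tested, 19.8% passed in that direction. The pattern was not particular to the 10, as 29 of 51 core spliceosome genes passed lower and 3 higher. The median term was -0.3955 in that list and -0.4045 in the 10. In the speckle, hnRNP and decay lists it was -0.03, -0.02 and -0.001. The difference on the log2 scale was -0.75 for *Srsf7*, which had a change of 0.30 with TCA alone and -0.45 with TCA added to Cu/ES. It was -0.48 for *Tra2b*, -0.47 for *Srsf3*, -0.46 for *Srsf1*, -0.45 for *Srsf6* and -0.36 for *Tra2a* (limma, BH-adjusted p = 1.30e-03, 0.0288, 2.40e-03, 0.0177 and 7.64e-03, and 7.35e-03 for *Srsf7*). *Srsf1* rose with TCA alone and fell with TCA added to Cu/ES. For *Clk4* the term was -0.01 (limma, BH-adjusted p = 0.945), and *Clk1* (-0.31), *Srsf2* (0.13) and *Srsf5* (0.14) did not pass. Without library A1 the term for *Clk1* was -0.38 and passed, and under median-ratio scaling it was -0.35 and passed. The term for *Srsf6* did not pass under TPM scaling (-0.37), quantile normalization (-0.41) or without a filter, and that for *Tra2a* was -0.19 and did not pass after quantile normalization. The call for *Srsf3* was lost without a filter, after quantile normalization (-0.36) and without library A1, A3, B2, B3, C1, C3 or D2 (differences of -0.47 to -0.40).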

How the results depend on the processing

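Of 1100 changes of single members recomputed under alternatives, 1023 kept their side of the adjusted p. Any of these that changed direction passed neither before nor after. A further 57 no longer passed, 12 passed where they had not, and 8 changed direction and passed before, after or both. The 8 were for B vs. A *Srsf1* (0.96), *Srsf6* (1.05) and *Clk1* (1.15) under median-ratio scaling and *Clk4* (-0.28) under TPM, and for C vs. D *Srsf1* (0.48), *Srsf6* (0.58) and *Clk1* (0.80) under median-ratio scaling and *Clk4* (-0.21) under TPM. Scaling differs by construction in the reference it holds constant. Members past both thresholds for B vs. A numbered 3 under TPM and 9 under median-ratio scaling, against 5. For C vs. D they numbered 7 under median-ratio scaling, against 2. *Srsf3* no longer passed both for C vs. D under TPM or quantile normalization, where *Srsf1* (-1.05) and *Tra2a* (1.11) did, in that order. By the adjusted p, 5 passed for C vs. B without a filter, against 8, and 3 for the interaction under quantile normalization, against 6; the cause was not tested for either. With each library left out, 5 to 8 passed for C vs. B and 2 to 7 for D vs. A, against 8 and 5. With the replicate block the counts past both thresholds were 5 for B vs. A and 2 for C vs. D, and the only member whose call changed was *Srsf2* for D vs. A, which passed (limma, BH-adjusted p = 0.0135). The block changed no member's call for B vs. A. In the other comparisons same-number pairs had an r of 0.00502 to 0.2769 (C vs. B), 0.0872 to 0.5789 (D vs. A) and -0.171 to 0.1105 (C vs. D). There 4, 3 and 2 of 6 libraries correlated best with their own number, fewer than for B vs. A. The highest r for C vs. B and D vs. A nevertheless lay above all those for B vs. A, so pairs are possible there too. The fit behind the values in the text had no block in any comparison. Over all groups the mean r was 0.125 for the same number and -0.059 for other numbers. The ratios within a library moved by less than 1 SD with a pseudocount and with each library left out. Quantile normalization, chosen after seeing the data, moved 4 of them for B vs. A, to -0.82 for *Clk1*/*Clk4*, 0.11 for *Tra2a*/*Tra2b*, -0.35 for *Srsf3*/*Srsf7* and 0.11 for *Srsf5*/*Srsf6*, and none for C vs. B or D vs. A. Depth did not limit the members, which had at least 2092 reads in each library.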

Other observations

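By the distance of log2(FPKM + 1), centred on group A, over the 12 libraries, the genes most like *Clk1* among 6868 others were *Chchd5*, a mitochondrial intermembrane space protein (distance 0.37, means of 29.2, 25.5, 16.2 and 21.9 FPKM in groups A to D), *Pik3cb* (0.57), *Paxbp1* (0.57), *Eno1b* (0.58) and *Bsg* (0.58). Most like the median profile of the 8 SR genes was *Prpf3*, a protein of the U4/U6 snRNP (distance 0.30, means of 17.95, 40.3, 31.2 and 21.0 FPKM), and then *Tmem208* (0.34), *Tmem33* (0.35), *Mob2* (0.40) and *Emc3* (0.40). *Srsf2*, *Srsf3* and *Srsf7* were highest in replicate 2 of each of the 4 groups, a pattern seen after the values were examined. *Tra2a* and *Tra2b* were each highest in replicate 1 of 3 groups and in replicate 2 of none.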
